A study of Mus musculus with 16 samples.

Results

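The enzymes of glycolysis and glycogen metabolism were followed in mouse skeletal muscle across genotype and treadmill training. The list held 35 genes, chosen by symbol: isoforms of every step from hexokinase to lactate dehydrogenase, the enzymes that regulate phosphofructokinase, and the enzymes, kinase subunits and phosphatase-targeting subunits of glycogen. Matching by symbol found 36 entries of the 55487 in the deposited gene table, because Aldoa has 2. Of these, 35 passed the filter on low counts, as did 17490 entries in all. Aldoc was the entry that did not pass, and the 35 tested entries (34 genes, with both for Aldoa) are called members in the counts below.

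RNA-seq libraries had been made from 4 groups of mice, with 4 libraries in each: CHCHD4 Tg mice with treadmill training (Tg trained), CHCHD4 Tg mice without it (Tg untrained), wild-type mice with training (WT trained) and wild-type mice without it (WT untrained). CHCHD4 is a mitochondrial intermembrane-space protein that oxidises cysteines of imported proteins, and Tg denotes a transgene. The labels give neither the muscle, the strain, sex or age of the mice, the promoter of the transgene nor the length of training. Nor do they state that each library is a different animal, and the p-values below therefore reflect library-to-library spread, which may be technical.

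Glycolysis splits a hexose into pyruvate and makes ATP without oxygen, and lactate dehydrogenase interconverts pyruvate and lactate. Fast-twitch fibres are known for high glycolytic capacity and for muscle isoforms of several of these enzymes. Glycogen is the stored glucose of muscle: glycogen synthase and the branching enzyme build it, and glycogen phosphorylase, switched on by phosphorylase kinase during contraction, breaks it down.

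Library totals lay between 40888272 and 61703679 counts. Chchd4 ranged over 18.1 to 22.2 CPM (counts scaled to library size after TMM normalization) in Tg libraries and 6.88 to 8.98 CPM in WT libraries, which fits the labelled genotypes. Defining markers of fast fibres were high in every library: the summed level of 11 such genes was 80762 to 85969 CPM in Tg trained, 71182 to 86989 in Tg untrained, 80266 to 92981 in WT trained and 57979 to 88756 in WT untrained libraries. The lowest of these sums belonged to WT untrained replicate 2, which also had the highest TMM factor (1.28, others up to 1.11). That library stood apart from the rest of its group, and results that rest on it are given with and without it. Myh7, the slow-fibre myosin, exceeded 10 CPM in 4 libraries, and Alb, a liver transcript, exceeded 10 CPM in 3. The Alb libraries were WT trained replicate 4, WT untrained replicate 2 and Tg untrained replicate 2. WT untrained replicate 2 was also among the Myh7 libraries. Fits without these sets are therefore not independent of fits without 1 of their libraries. In bulk muscle RNA, fewer cells of a type and less RNA per cell cannot be told apart.

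The muscle isoforms dominated most of the families. Per kilobase of exon, averaged over the 16 libraries, the highest level was that of Aldoa (2099.8 CPM per kb), which encodes aldolase A, followed by Eno3, the muscle enolase (1218), Pygm, the muscle glycogen phosphorylase (893), Pgam2, the muscle phosphoglycerate mutase (730.1), and Pfkm, the muscle phosphofructokinase (558). Gapdh, Pkm, Tpi1 and Ldha lay between 253 and 355 CPM per kb. Exon length here is that of all annotated exons of a gene merged, 4133 bases for Gapdh and 1739 bases for Eno3. Ranks per kilobase therefore depend on the annotation as well as on transcript level. The other entries lay between 0.0389 CPM per kb for Aldoc and 148 CPM per kb for Pgm1. Aldoc had 2 to 18 counts in a library and was not tested.

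Within families, again per kilobase of exon, Eno3 took 98.8% to 99.7% of the 2 enolases, Pfkm 99.5% to 99.9% of the 3 phosphofructokinases and Hk2 98.7% to 99.4% of the 2 hexokinases. Pygm took 99.8% to 99.9% of the 2 phosphorylases, and Pgam2 98.7% to 99.6% of the 2 phosphoglycerate mutases. The lowest shares of Eno3, Pfkm, Pygm and Pgam2 were those of WT untrained replicate 2. In lactate dehydrogenase, Ldhb took 5.63% to 14.1% of Ldha and Ldhb together. That share rests on exon lengths of 3310 bases for Ldha and 1570 bases for Ldhb, and is lower in CPM not divided by length. Pfkfb3 was the most variable in share, at 23.6% to 76.4% of Pfkfb1, Pfkfb3 and Pfkfb4. Counts in members summed to 2.14% to 2.30% of all counts in Tg trained, 2.03% to 2.32% in Tg untrained, 2.32% to 2.43% in WT trained and 1.72% to 2.35% in WT untrained libraries.

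**Figure D1:**
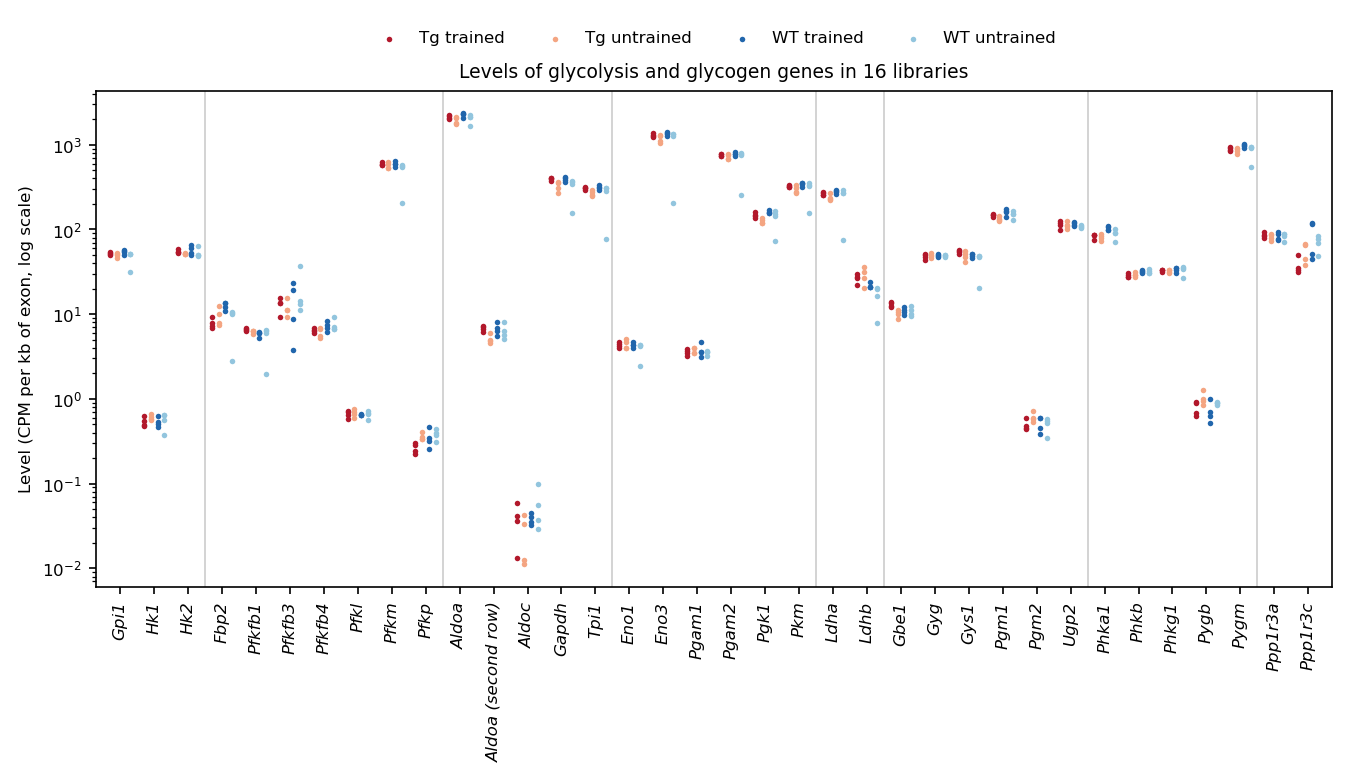
Level of each entry in each of the 16 libraries, in CPM per kb of exon on a log scale, with genes ordered by role and grey lines between roles. Means run from 2099.8 CPM per kb for Aldoa to 0.0389 for Aldoc. The muscle isoforms of enolase, phosphofructokinase, phosphoglycerate mutase and phosphorylase also sit orders of magnitude above the others of their families. Ldha and Ldhb (253 and 23.3) and the Pfkfb genes lie closer together. The low points of many abundant genes belong to 1 WT untrained library.

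Promoter sequence is shown for 4 genes: Ldha and Ldhb, the pair with the most mixed isoform use, Eno3, the member with the lowest ratio in WT untrained replicate 2, and Ppp1r3c, the member with the largest fitted fold change between groups. Each window runs from 250 bases before to 50 bases after a transcription start (RefSeq, GRCm38.p6), 5′ to 3′ on the gene's strand. Capitals mark ACGTG, the core bound by bHLH-PAS factors such as HIF, and CAGCTG, an E-box bound by myogenic bHLH factors, on either strand.
Ldha promoter, chr7:46845554-46845853, plus strand: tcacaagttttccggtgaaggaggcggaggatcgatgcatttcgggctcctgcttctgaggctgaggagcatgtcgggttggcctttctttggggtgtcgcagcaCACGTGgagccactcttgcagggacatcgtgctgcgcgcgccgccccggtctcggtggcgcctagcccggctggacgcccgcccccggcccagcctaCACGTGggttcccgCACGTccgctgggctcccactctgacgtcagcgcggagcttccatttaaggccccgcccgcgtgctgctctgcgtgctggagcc
Ldhb promoter, chr6:142507908-142508207, minus strand: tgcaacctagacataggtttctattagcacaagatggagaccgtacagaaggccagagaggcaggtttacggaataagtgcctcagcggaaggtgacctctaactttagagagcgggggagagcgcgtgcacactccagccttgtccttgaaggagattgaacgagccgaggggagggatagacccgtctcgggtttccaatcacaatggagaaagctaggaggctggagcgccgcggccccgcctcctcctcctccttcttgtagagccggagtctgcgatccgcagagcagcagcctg
Eno3 promoter, chr11:70656926-70657225, plus strand: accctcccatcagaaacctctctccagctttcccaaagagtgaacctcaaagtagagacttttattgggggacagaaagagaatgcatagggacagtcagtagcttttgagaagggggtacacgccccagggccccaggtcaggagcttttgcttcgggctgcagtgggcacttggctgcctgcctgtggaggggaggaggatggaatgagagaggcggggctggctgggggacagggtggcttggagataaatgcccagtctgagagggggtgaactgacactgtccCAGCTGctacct
Ppp1r3c promoter, chr19:36736555-36736854, minus strand: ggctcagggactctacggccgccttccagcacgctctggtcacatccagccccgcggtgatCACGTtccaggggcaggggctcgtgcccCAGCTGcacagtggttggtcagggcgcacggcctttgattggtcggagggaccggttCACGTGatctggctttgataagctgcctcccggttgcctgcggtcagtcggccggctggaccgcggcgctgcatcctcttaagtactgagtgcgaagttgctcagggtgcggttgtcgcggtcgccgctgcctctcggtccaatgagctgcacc

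The Ldha window shown held 5 ACGTG matches, with the palindrome CACGTG counted on both strands, and the Ldhb window held 0 of either motif. A second Ldha window, not shown (chr7:46846832-46847131), also held 0 of either motif. The Eno3 window held 1 CAGCTG, and the Ppp1r3c window held 3 ACGTG matches and 1 CAGCTG. Over the promoters of all 35 genes of the list, the untested Aldoc included, ACGTG was found in 43.1% of 51 windows (19 of 35 genes). The share of all 32851 windows was 19.6%. CAGCTG was found in 27.5% of the 51 windows (14 of 35 genes), against 16.3% of all windows. These are letter matches in short windows, and no binding was measured.

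At the entry of hexose, Hk2, the insulin-responsive hexokinase of muscle (ENSMUSG00000000628.10, chromosome 6, 82725025 to 82774454, GRCm38 throughout), measured 353, 326, 311 and 327 CPM in Tg trained and 305, 310.0, 308 and 317 CPM in Tg untrained libraries. It measured 315, 300.4, 387 and 361 CPM in WT trained and 299, 376, 302 and 294 CPM in WT untrained libraries. The groups overlapped, and the 3 highest libraries were WT trained replicate 3, WT untrained replicate 2 and WT trained replicate 4. Hk1, the widely expressed hexokinase, ranged over 3.22 to 5.65 CPM, and Gpi1, the isomerase of glucose phosphate, over 205 to 367 CPM with its minimum in WT untrained replicate 2.

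At the committed step, Pfkm (ENSMUSG00000033065.14, chromosome 15, 98092589 to 98132451) measured 1953, 1999.9, 1948 and 2077 CPM in Tg trained and 1964, 1779, 1776 and 2067 CPM in Tg untrained libraries. It measured 2163, 1964, 1983 and 1829.6 CPM in WT trained and 1873, 688, 1903 and 1842 CPM in WT untrained libraries. Apart from WT untrained replicate 2, every library lay between 1776 and 2163 CPM and the groups overlapped. Pfkp, the platelet-type phosphofructokinase, was barely expressed, at 3.78, 2.96, 4.01 and 3.28 CPM in Tg trained and 4.49, 4.71, 5.45 and 4.48 CPM in Tg untrained libraries. It was at 4.32, 3.47, 4.69 and 6.22 CPM in WT trained and 4.97, 4.14, 5.96 and 5.28 CPM in WT untrained libraries. All 4 Tg trained libraries lay below all 4 Tg untrained libraries, while the WT groups overlapped. Pfkl, the liver type, ranged over 3.75 to 5.12 CPM.

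The bifunctional Pfkfb enzymes make and remove fructose bisphosphate signals that activate phosphofructokinase. Pfkfb3 (ENSMUSG00000026773.19, chromosome 2, 11471433 to 11554077) measured 117, 104, 70.4 and 101 CPM in Tg trained and 85.0, 116, 84.3 and 69.5 CPM in Tg untrained libraries. It measured 146, 179, 66.8 and 28.4 CPM in WT trained and 108, 277, 85.9 and 100.1 CPM in WT untrained libraries. Its spread within the WT groups was wide: WT untrained replicate 2 was the highest library, WT trained replicate 4 the lowest, and WT trained replicates 1 and 2 lay above replicates 3 and 4. Pfkfb4 measured 31.9, 30.9, 29.5 and 33.3 CPM in Tg trained and 33.5, 26.6, 25.6 and 32.2 CPM in Tg untrained libraries. It measured 30.2, 36.4, 40.0 and 33.6 CPM in WT trained and 32.7, 45.7, 34.4 and 32.5 CPM in WT untrained libraries. WT untrained replicate 2 and WT trained replicate 3 were the highest, Tg untrained replicates 2 and 3 the lowest, and the groups overlapped. Pfkfb1 ranged over 25.7 to 27.2 CPM in Tg trained, 23.5 to 25.6 in Tg untrained, 21.0 to 24.9 in WT trained and 7.93 to 26.1 in WT untrained libraries.

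Fbp2, the muscle fructose bisphosphatase, which runs the phosphofructokinase step backwards (ENSMUSG00000021456.8, chromosome 13, 62836877 to 62858422), measured 11.4, 10.7, 13.5 and 10.02 CPM in Tg trained and 14.6, 11.7, 10.95 and 18.2 CPM in Tg untrained libraries. It measured 15.9, 17.8, 20.1 and 19.98 CPM in WT trained and 15.3, 4.07, 14.7 and 15.5 CPM in WT untrained libraries. All 4 WT trained libraries lay above every Tg trained and every WT untrained library, and WT untrained replicate 2 was the lowest of the 16.

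In the triose stage, Aldoa (ENSMUSG00000030695.16, chromosome 7, 126795234 to 126800751) measured 6436, 6108, 5881 and 6499 CPM in Tg trained and 6028, 5176, 5262 and 6209 CPM in Tg untrained libraries. It measured 6728, 6638, 6860.1 and 6095 CPM in WT trained and 6479, 4897, 6257 and 6246 CPM in WT untrained libraries. WT untrained replicate 2 was lowest, followed by Tg untrained replicates 2 and 3, and the groups overlapped. The second entry with the symbol Aldoa (ENSMUSG00000114515.2, chromosome 7, 126800790 to 126809108) lies just upstream on the same strand, and how reads were divided between them is uncertain. It had 5.41, 5.65, 4.88 and 5.79 CPM in Tg trained and 4.86, 3.85, 3.69 and 3.93 CPM in Tg untrained libraries. It had 5.52, 6.46, 5.11 and 4.37 CPM in WT trained and 5.11, 4.09, 6.41 and 4.57 CPM in WT untrained libraries. The Tg trained libraries were above the Tg untrained ones, narrowly so for the nearest pair, and the WT groups overlapped.

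Tpi1, the triose phosphate isomerase, ranged over 812 to 867 CPM in Tg trained, 683 to 814 in Tg untrained, 797 to 910.4 in WT trained and 210.0 to 855 in WT untrained libraries. Gapdh, the triose phosphate dehydrogenase, ranged over 1559.6 to 1690.5 CPM in Tg trained, 1129 to 1498 in Tg untrained, 1491 to 1714 in WT trained and 651 to 1548 in WT untrained libraries. For Gapdh, the Tg trained and Tg untrained libraries did not overlap.

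In lower glycolysis, Eno3 (ENSMUSG00000060600.15, chromosome 11, 70657202 to 70662513) measured 2196, 2239, 2157 and 2390.4 CPM in Tg trained and 2278, 1949, 1807 and 2195 CPM in Tg untrained libraries. It measured 2460.3, 2309, 2425 and 2229 CPM in WT trained and 2364, 357, 2213 and 2324 CPM in WT untrained libraries. Apart from WT untrained replicate 2, all libraries lay between 1807 and 2460 CPM and overlapped between groups. Over the 16 libraries, Pgk1, phosphoglycerate kinase, ranged over 162 to 385 CPM, Pgam2 over 213 to 695 CPM and Pkm, pyruvate kinase, over 784 to 1791 CPM, each with its minimum in WT untrained replicate 2. The non-muscle isoforms Eno1 and Pgam1 ranged over 13.1 to 27.3 CPM and 6.23 to 9.24 CPM.

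Of the lactate dehydrogenase subunits, Ldha, which predominates in fast glycolytic muscle (ENSMUSG00000063229.15, chromosome 7, 46841475 to 46855627), measured 847, 895, 837 and 926 CPM in Tg trained and 896, 768, 731 and 789.7 CPM in Tg untrained libraries. It measured 907, 946, 968 and 866 CPM in WT trained and 972, 249, 904 and 891 CPM in WT untrained libraries. Again 1 library, WT untrained replicate 2, was far below the rest, which lay between 731 and 972 CPM. Ldhb, which predominates in heart and oxidative muscle (ENSMUSG00000030246.12, chromosome 6, 142490249 to 142507957), measured 34.5, 43.0, 47.1 and 42.5 CPM in Tg trained and 31.8, 42.0, 56.8 and 49.8 CPM in Tg untrained libraries. It measured 37.8, 33.0, 33.0 and 33.1 CPM in WT trained and 31.8, 12.3, 25.6 and 31.5 CPM in WT untrained libraries. The highest 6 libraries for Ldhb were all Tg, but replicate 1 of each Tg group was lower and overlapped the WT range. Per kilobase, Ldhb made up 7.91, 9.19, 10.6 and 8.82% of lactate dehydrogenase in Tg trained, 6.96, 10.3, 14.1 and 11.7% in Tg untrained, 8.07, 6.85, 6.70 and 7.46% in WT trained and 6.45, 9.43, 5.63 and 6.93% in WT untrained libraries. Its share in WT untrained replicate 2 was the highest of the WT libraries, where Ldha was low as well.

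In glycogen synthesis, Pgm1, phosphoglucomutase (ENSMUSG00000025791.18, chromosome 4, 99929414 to 99987294), measured 437, 430.2, 409.9 and 451 CPM in Tg trained and 418, 371, 375 and 386 CPM in Tg untrained libraries. It measured 482, 511, 473 and 412 CPM in WT trained and 479, 380.0, 450.0 and 447 CPM in WT untrained libraries. Tg untrained replicate 2 was the lowest library and WT trained replicate 2 the highest, and 3 of the 4 Tg untrained libraries lay below all but 1 of the other libraries. Gbe1, the branching enzyme (ENSMUSG00000022707.16, chromosome 16, 70313949 to 70569716), measured 66.0, 74.2, 64.5 and 71.7 CPM in Tg trained and 53.2, 59.4, 47.4 and 57.0 CPM in Tg untrained libraries. It measured 59.6, 52.2, 65.6 and 56.7 CPM in WT trained and 53.5, 66.4, 59.6 and 50.7 CPM in WT untrained libraries. All 4 Tg trained libraries were above all 4 Tg untrained libraries, while the WT groups overlapped.

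Over the 16 libraries, Ugp2, which makes UDP-glucose, ranged over 306 to 389 CPM, Gyg, the glycogenin primer, over 102 to 124 CPM, Gys1, the muscle glycogen synthase, over 96.7 to 276 CPM and Pgm2 over 0.906 to 1.84 CPM. Among these, only Gys1 had its minimum in WT untrained replicate 2.

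In glycogen breakdown, Pygm (ENSMUSG00000032648.14, chromosome 19, 6384399 to 6398459) measured 2767, 2914, 2754 and 3069 CPM in Tg trained and 2989, 2499, 2750.1 and 2868 CPM in Tg untrained libraries. It measured 3172, 3282, 3138 and 2915 CPM in WT trained and 3067, 1764, 2988 and 3031 CPM in WT untrained libraries. The lowest library was WT untrained replicate 2, and the rest overlapped between groups. Phka1, the muscle regulatory alpha subunit of phosphorylase kinase (ENSMUSG00000034055.16, chromosome X, 102513975 to 102644246), measured 544, 543, 477 and 546 CPM in Tg trained and 547, 519.5, 491 and 456 CPM in Tg untrained libraries. It measured 626, 624, 682 and 668 CPM in WT trained and 637, 444, 576 and 563 CPM in WT untrained libraries. All 4 WT trained libraries lay above all 8 Tg libraries, and how many of all genes did the same was not counted. WT untrained replicate 1 reached into the WT trained range. Phkb, the beta subunit, ranged over 202 to 255 CPM, Phkg1, the catalytic subunit, over 175 to 236 CPM and Pygb, the brain-type phosphorylase, over 2.501 to 6.12 CPM.

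The remaining members target protein phosphatase to glycogen. Ppp1r3a, the subunit of striated muscle (ENSMUSG00000042717.5, chromosome 6, 14713977 to 14755274), measured 599.7, 643, 557 and 585 CPM in Tg trained and 597, 612, 507 and 546 CPM in Tg untrained libraries. It measured 544, 643, 610.3 and 528 CPM in WT trained and 611, 499, 612 and 576 CPM in WT untrained libraries. The lowest library was again WT untrained replicate 2, and all groups overlapped. Ppp1r3c, the subunit also known as PTG (ENSMUSG00000067279.3, chromosome 19, 36731731 to 36736653), measured 138, 90.5, 96.1 and 86.1 CPM in Tg trained and 122, 105, 179 and 183 CPM in Tg untrained libraries. It measured 122, 139.8, 326 and 319.7 CPM in WT trained and 228, 131, 188 and 213 CPM in WT untrained libraries. WT trained libraries split into replicates 1 and 2, near the Tg levels, and replicates 3 and 4, which were the highest of the 16, and replicate 1 was highest among the Tg trained libraries.

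**Figure D2:**
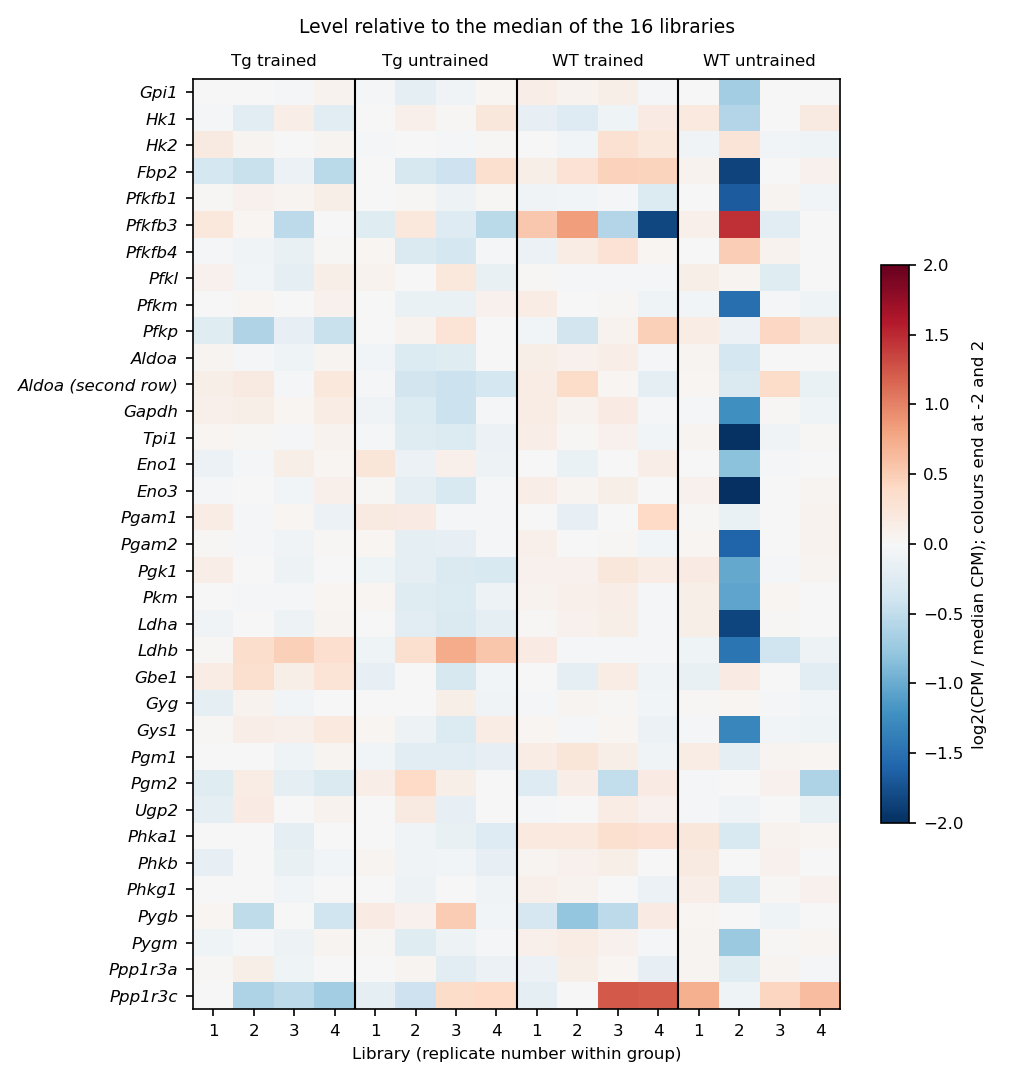
Level of the 35 tested entries in each library relative to the median of the 16 libraries, as log2(CPM / median CPM), with genes in rows by role and libraries in columns by group. The column of WT untrained replicate 2 is blue for most glycolytic enzymes and red for Pfkfb3.

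WT untrained replicate 2 had low levels of many glycolytic enzymes. Its CPM was below 0.5 times the mean of the other 3 WT untrained libraries for 12 of 35 entries, against 4.04% of 12189 genes with a mean of at least 1 CPM in those 3 libraries. Among genes of at least 100 CPM the shares were 9 of 21 members and 14.1% of 555 genes. The 12 were Eno3 (ratio 0.155), Tpi1 (0.253), Fbp2, Ldha, Pfkfb1, Pgam2, Pfkm, Ldhb, Gys1, Gapdh, Pkm and Pgk1 (0.471), and so ran through phosphofructokinase, the triose stage, lower glycolysis and lactate dehydrogenase. Aldoa was less reduced (ratio 0.774), as was Pygm (0.582). The other glycogen-building genes had ratios of 0.83 for Pgm1, 1.12 for Pgm2, 0.989 for Ugp2, 1.04 for Gyg and 1.22 for Gbe1.

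Pfkfb3 was the member above 2 times the mean of the others there (ratio 2.83), against 1.66% of genes. Hk2 (1.26) and Pfkfb4 (1.38) were higher to a smaller degree. In each of the other 15 libraries, set against the rest of its own group, 0 or 1 members lay outside these limits. The 11 fast-fibre markers summed to 57979 CPM in the same library against 85056 to 88756 CPM in the other 3. Myh1 and Myh2, picked from the 11 after their values were seen, were lower there in proportion than the sum. Myh1 measured 9519, 3296, 10809.6 and 9087 CPM and Myh2 563, 127, 452 and 613 CPM in WT untrained replicates 1 to 4. In replicate 2, Myh7 was at 11.2 CPM and Alb at 14.9 CPM. Summed markers of adipocytes were at 118 CPM against 73.0 to 89.4 CPM in the other 3, of macrophages at 45.9 CPM against 26.9 to 35.4 CPM in the other 3 and of endothelium at 94.8 CPM against 121 to 138 CPM in the other 3. The part of these differences in the member values was not tested.

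The response to training was asked first within each genotype. In Tg muscle, Gbe1, the glycogen branching enzyme, was higher in every trained than in any untrained library, at 69.1 ± 4.62 CPM in Tg trained and 54.2 ± 5.21 CPM in Tg untrained libraries (SD, n = 4 each). Pfkp, the platelet-type phosphofructokinase, was lower in every trained library, at 3.51 ± 0.475 CPM in Tg trained and 4.78 ± 0.455 CPM in Tg untrained libraries (SD, n = 4 each). None of these differences passed the test. Training left 0 of 35 members called by edgeR's quasi-likelihood test at an adjusted p under 0.05, where 0% of the 17490 genes were called. DESeq2 and limma-voom called 0 members too. At an unadjusted p under 0.05 there were 4 members of 35, against 11.1% of all genes. The median log2 fold change (log2FC, Tg trained over Tg untrained) was 0.07 over the members, 23 of 35 positive, against 0.002 over all genes, and it was -0.04 when libraries were scaled by totals alone. Scaling by totals moved the median of all genes by over 0.1 in the training comparisons, to -0.11 here. Without the libraries above 10 CPM of Myh7 the member median was 0.02, with 22 of 35 positive.

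The smallest p in Tg muscle belonged to Gbe1, with a log2FC of 0.35 (SE 0.0939, adjusted p = 0.190) in edgeR. The second Aldoa entry followed at 0.41 (SE 0.139, adjusted p = 0.296) and Pfkp at -0.45 (SE 0.156, adjusted p = 0.305), both in edgeR. Groups did not overlap, with Tg trained above, for 4 members (the second Aldoa entry, Gapdh, Gbe1 and Pfkfb1) where 4.65% of genes did the same. For 1 member, Pfkp, Tg trained lay below, as did 4.53% of genes. Gapdh averaged 1635 ± 55.3 CPM in Tg trained and 1336 ± 174 CPM in Tg untrained libraries (SD, n = 4 each), with a log2FC of 0.29 (SE 0.192, adjusted p = 0.624) in edgeR. Without the 4 libraries above 10 CPM of Myh7, which include Tg untrained replicates 2 and 3, the Gapdh value was 0.14 (adjusted p = 0.491, edgeR). The 7 adipocyte markers, all above 0 in every library, summed to 61.6 to 76.4 CPM in Tg trained and 86.7 to 128 CPM in Tg untrained libraries, without overlap. The 5 tendon and cartilage markers summed to 67.1 to 107 CPM in Tg trained and 101 to 197 CPM in Tg untrained libraries. The part of these cells in the differences with training was not tested.

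In WT muscle, Fbp2 and Ldhb were higher in every trained than in any untrained library. Fbp2 averaged 18.5 ± 1.98 CPM in WT trained and 12.4 ± 5.55 CPM in WT untrained libraries, and Ldhb 34.2 ± 2.36 CPM in WT trained and 25.3 ± 9.12 CPM in WT untrained libraries (SD, n = 4 each). Neither passed the test. Training left 0 of 35 members called in edgeR, where 0.143% of all genes were called, and 0 in DESeq2 and limma-voom. There was 1 member at an unadjusted p under 0.05, against 9.55% of all genes. The median log2FC (WT trained over WT untrained) was 0.14 over the members, with 28 of 35 positive, against 0.005 and 51.3% positive over all genes. Without WT untrained replicate 2 the member median was 0.04, with 25 of 35 positive, and without the Myh7 libraries 0.02, with 24 of 35 positive. With libraries scaled by totals alone it was 0.05, against -0.10 over all genes.

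Phka1 had the smallest p in WT muscle. It averaged 649.7 ± 29.4 CPM in WT trained and 555 ± 80.9 CPM in WT untrained libraries (SD, n = 4 each), and its log2FC was 0.23 (SE 0.0972, adjusted p = 0.494) in edgeR. Fbp2 followed at 0.58 (SE 0.284, adjusted p = 0.539) and Ldhb at 0.44 (SE 0.226, adjusted p = 0.564), both in edgeR. Without WT untrained replicate 2 these log2FC were 0.13, 0.28 and 0.20, and without the Myh7 libraries 0.11, 0.24 and 0.22. Fbp2 and Ldhb were the 2 members whose WT trained libraries all lay above the WT untrained ones, as 2.36% of genes did. No member lay wholly below, where 2.03% of genes did. For Fbp2 the trained libraries were at 15.9 to 20.1 CPM and the untrained ones, replicate 2 aside, at 14.7 to 15.5 CPM.

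Among the members, Gbe1 and Fbp2 had the smallest p for a training response that differs between genotypes, with Gbe1 higher after training in Tg muscle and Fbp2 higher after training in WT muscle. The difference between the training responses (Tg minus WT) was called for 0 of 35 members in edgeR, where 0.0515% of all genes were called, and for 0 in DESeq2 and limma-voom. At an unadjusted p under 0.05 there were 2 members of 35, Gbe1 and Fbp2, against 6.03% of all genes. For Gbe1, log2FC with training was 0.35 in Tg and 0.02 in WT, a difference of 0.33 (SE 0.133, adjusted p = 0.777) in edgeR. For Fbp2 it was -0.28 in Tg and 0.58 in WT, a difference of -0.86 (SE 0.402, adjusted p = 0.812) in edgeR, and without WT untrained replicate 2 the difference was -0.56. The member median of the differences was -0.10, with 28 of 35 negative, and 0.017, with 15 of 35 negative, without that library.

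Averaged over both genotypes, Pygb, a minor phosphorylase in muscle, had the smallest p, with a log2FC of -0.35 (SE 0.125, adjusted p = 0.217) in edgeR, and Gbe1 the next, at 0.19 (SE 0.0664, adjusted p = 0.219). Without WT trained replicate 4, Pygb was called (log2FC -0.46, adjusted p = 0.0384, edgeR), in a fit that called 2.22% of all genes. Without the 3 libraries above 10 CPM of Alb, edgeR called 3 members, Pfkp (log2FC -0.42, adjusted p = 0.0280), Gbe1 (0.25, adjusted p = 0.0407) and Pygb (-0.48, adjusted p = 0.0414), where that fit called 3.34% of all genes. Pygb means were 3.74 ± 0.709 CPM in Tg trained, 4.89 ± 0.864 in Tg untrained, 3.42 ± 0.993 in WT trained and 4.26 ± 0.162 in WT untrained libraries (SD, n = 4 each), so the gene lay below 7 CPM throughout. Training gave 0 of 35 members called in edgeR (background 0.457% of genes), 0 in DESeq2 and 0 in limma-voom. At an unadjusted p under 0.05 there were 7 of 35, against 14.4% of all genes. The member median was 0.13 with 26 of 35 positive, 0.05 without WT untrained replicate 2 and 0.01 (21 of 35 positive) without the Myh7 libraries.

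**Figure D3:**
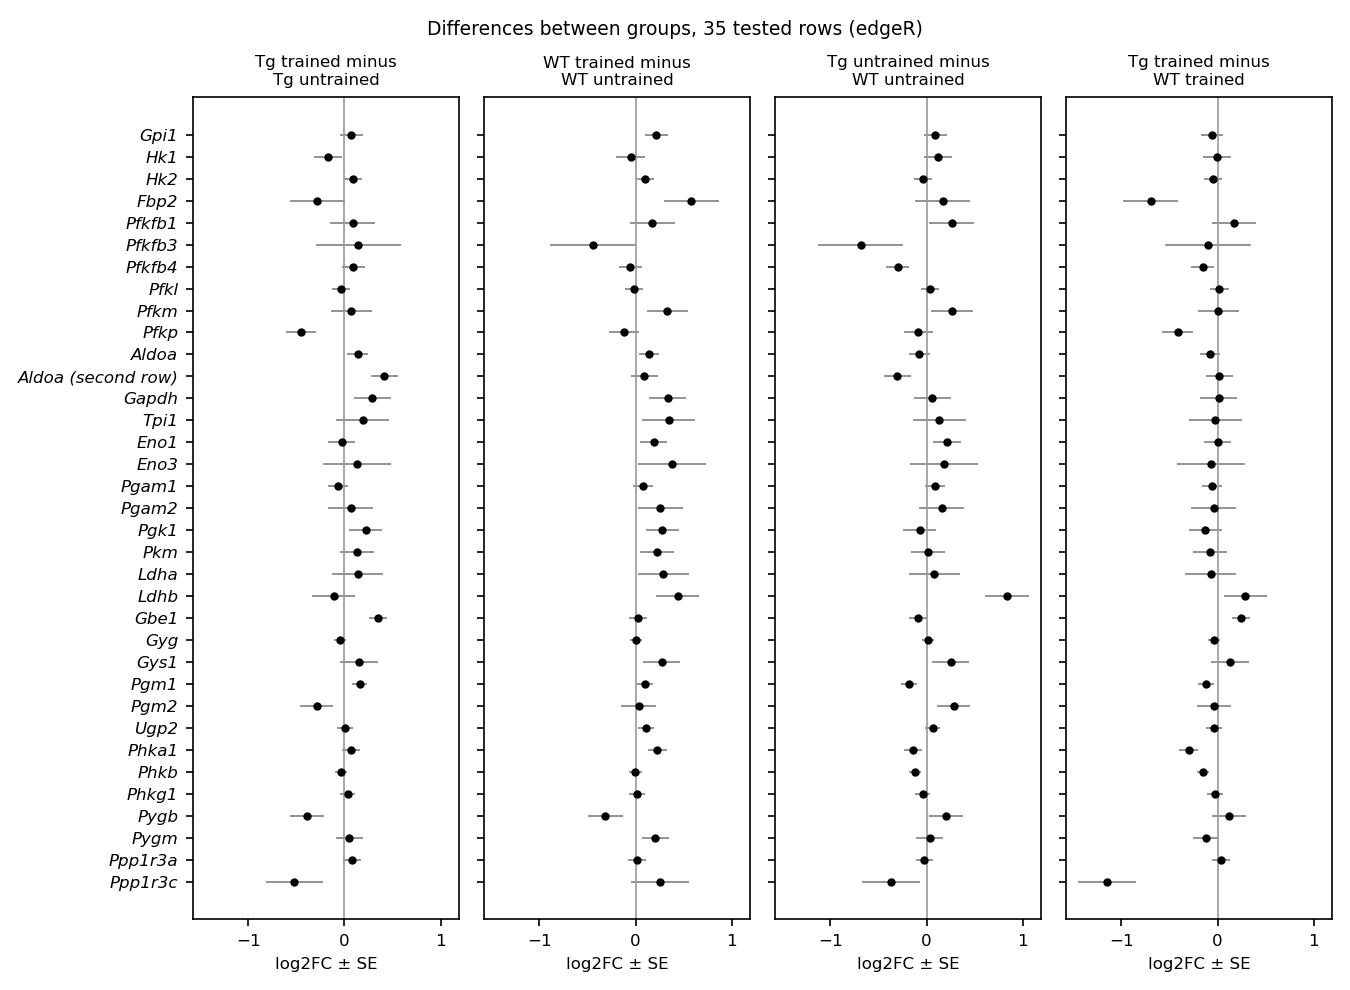
Fitted log2FC with its SE for the 35 tested entries in the 4 pairwise comparisons, with the direction given in each panel title (edgeR). Most values lie within 0.5 of 0, the farthest being Ppp1r3c in Tg trained against WT trained at -1.15, and no entry had an adjusted p under 0.05.

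The transgene was then asked about at each training state. The comparison without training uses the same WT untrained libraries as training in WT, so the values of both share their error. In untrained muscle, Ldhb, the lactate dehydrogenase subunit of oxidative muscle, averaged 45.1 ± 10.7 CPM in Tg untrained and 25.3 ± 9.12 CPM in WT untrained libraries (SD, n = 4 each), the highest 3 of the 8 libraries being Tg. This did not pass the test in edgeR, in which 0 of 35 members were called, where 0.743% of all genes were called. Limma-voom called 0 and DESeq2 called 1, Ldhb, where DESeq2 called 2.53% of all genes. At an unadjusted p under 0.05 there were 4 of 35 members, against 16.2% of all genes. No member had groups that did not overlap, where 4.33% of genes lay wholly higher and 4.16% wholly lower in Tg.

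Ldhb had the smallest p, and its log2FC was 0.84 (SE 0.226, adjusted p = 0.0965) in edgeR. In DESeq2 it was 0.84, adjusted p = 0.0172. Without WT untrained replicate 2 the edgeR value was 0.61 (adjusted p = 0.0736), and without the libraries above 10 CPM of Myh7 it was 0.46 (adjusted p = 0.292). Pfkfb4 had a log2FC of -0.30 (SE 0.116, adjusted p = 0.223) and Pgm1 of -0.18 (SE 0.0821, adjusted p = 0.298) in edgeR. Pfkfb4 was at -0.17 without WT untrained replicate 2 and Pgm1 at -0.24.

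Across the members, the median log2FC (Tg untrained over WT untrained) was 0.04 with 21 of 35 positive when all 16 libraries were used. Without WT untrained replicate 2 it was -0.13, with 24 of 35 negative and 12 of 35 at an unadjusted p under 0.05, against 15.3% of all genes, and 0 called. Eno3 was at 0.18 with and -0.16 without that library, Tpi1 at 0.13 and -0.17, and Ldha at 0.08 and -0.21. The sign of the member median thus differed with and without 1 WT library.

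**Figure D4:**
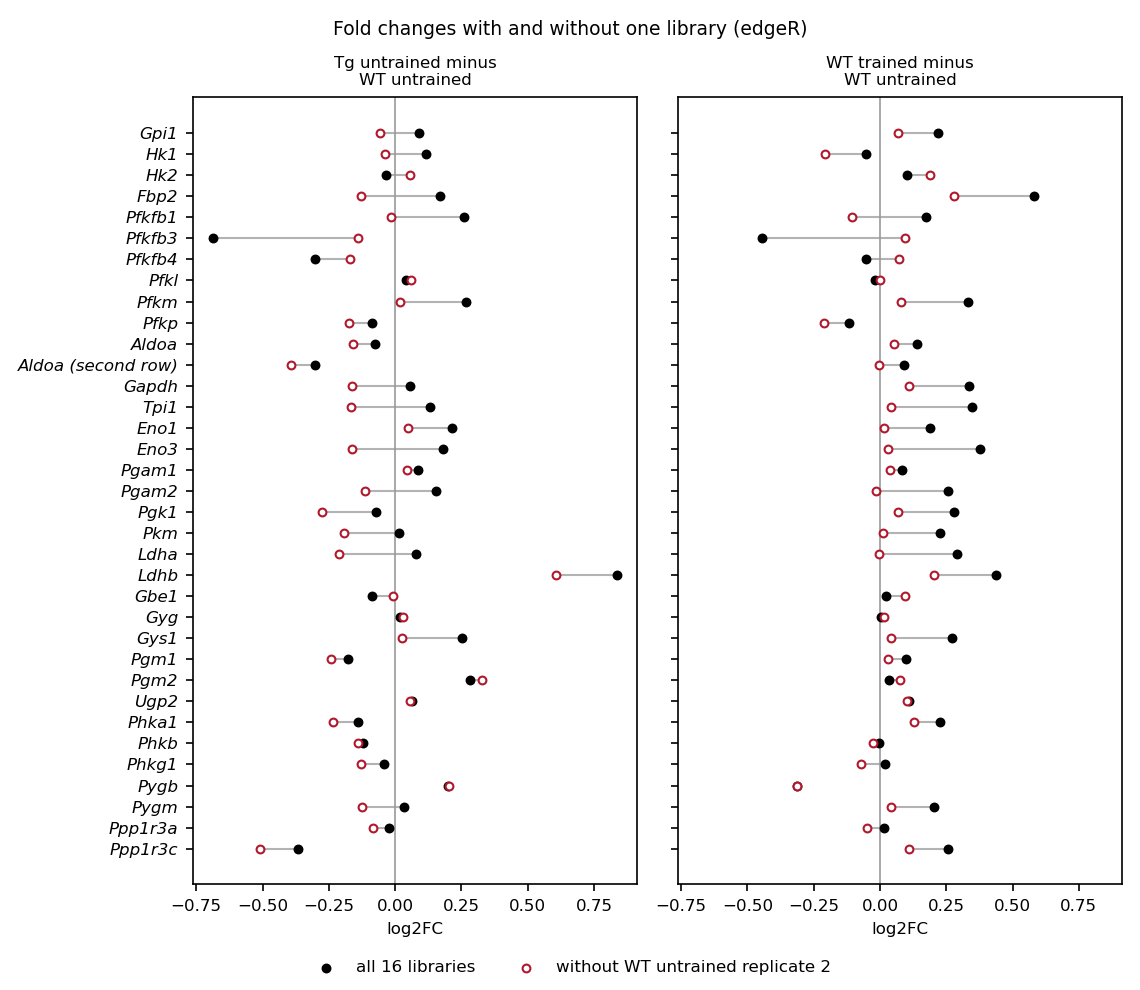
Fitted log2FC (edgeR) of the 35 tested entries for Tg untrained minus WT untrained and for WT trained minus WT untrained, with all 16 libraries (filled) and without WT untrained replicate 2 (open). The member median in the left panel is -0.13 without the library and 0.04 with it, with Pfkfb3 and then Eno3 moving farthest.

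In trained muscle, Ppp1r3c, the glycogen-targeting phosphatase subunit, had the largest difference, though it did not pass the test. It averaged 103 ± 23.7 CPM in Tg trained and 227 ± 111 CPM in WT trained libraries (SD, n = 4 each), and its log2FC was -1.15 (SE 0.302, adjusted p = 0.349) in edgeR. The groups overlapped only through Tg trained replicate 1, at 138 CPM, which lay above the lowest WT trained library, replicate 1 at 122 CPM. Phka1 averaged 527 ± 33.8 CPM in Tg trained and 649.7 ± 29.4 CPM in WT trained libraries, with a log2FC of -0.30 (SE 0.0972, adjusted p = 0.427) in edgeR, and its groups did not overlap. Pfkp had a log2FC of -0.42 (SE 0.157, adjusted p = 0.504) and Fbp2 of -0.69 (SE 0.285, adjusted p = 0.566), both in edgeR, and Pfkp was at -0.25 without WT trained replicate 4. Fbp2 and Phka1 were the 2 members that lay wholly lower in Tg trained libraries, as 2.76% of genes did, and Pfkfb1 was the 1 that lay wholly higher, as 2.94% did.

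In this comparison, 0 of 35 members were called in edgeR, where 0.0114% of all genes were called, and 0 in DESeq2 and limma-voom. At an unadjusted p under 0.05 there were 6 of 35 members, against 7.98% of all genes. The median log2FC (Tg trained over WT trained) was -0.04 with 25 of 35 negative, against -0.003 and 49.1% positive over all genes. The means of these groups do not include WT untrained replicate 2. The 5 erythroid markers, all above 0, summed to 149.7 to 177 CPM in Tg trained and 123 to 147 CPM in WT trained libraries, and their part in the differences was not tested.

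Averaged over both training states, Ppp1r3c and Phka1 were lower and Ldhb was higher in Tg than in WT muscle in fitted value, and none passed the test in edgeR. There, 0 of 35 members were called, where 1.12% of all genes were called. DESeq2 called 3 (Ldhb, Phka1 and Ppp1r3c) and limma-voom 0, where DESeq2 called 3.65% of all genes. At an unadjusted p under 0.05 there were 7 of 35 members, against 17.2% of all genes. In edgeR, Ppp1r3c had a log2FC of -0.76 (SE 0.212, adjusted p = 0.0856), Ldhb of 0.56 (SE 0.159, adjusted p = 0.0886) and Phka1 of -0.22 (SE 0.0687, adjusted p = 0.118). Without WT untrained replicate 2, edgeR called 4 members: Phka1 (log2FC -0.27, adjusted p = 0.0135), Ldhb (0.45, adjusted p = 0.0351), Pgk1 (-0.20, adjusted p = 0.0369) and Fbp2 (-0.41, adjusted p = 0.0413), where that fit called 2.01% of all genes. Ppp1r3c was called without WT trained replicate 1 (log2FC -0.86, adjusted p = 0.0432) or replicate 2 (-0.84, adjusted p = 0.0472), in edgeR, where 1.21% and 2.14% of all genes were called. Without the Alb libraries edgeR called 2 members, Pgm1 (log2FC -0.20, adjusted p = 0.0336) and Phka1 (-0.27, adjusted p = 0.0336), where that fit called 1.23% of all genes. The member median was 0.01 with all libraries, -0.08 without WT untrained replicate 2 and -0.01 with scaling by totals alone.

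Ldhb was not called in any edgeR comparison with all 16 libraries. A myosin gene, Myh2, is set beside it here and was singled out after its values were seen. Myh2 encodes the myosin of fast oxidative fibres and measured 977, 1547, 1898 and 1547 CPM in Tg trained and 786, 1309.6, 1708 and 973 CPM in Tg untrained libraries. It measured 697, 564, 561 and 536 CPM in WT trained and 563, 127, 452 and 613 CPM in WT untrained libraries. The Tg and WT libraries did not overlap, and how many of all genes did the same was not counted. The log2FC averaged over training states was 1.39 (SE 0.253, adjusted p = 0.0203, edgeR), where 1.12% of all genes were called. In both Tg groups, replicate 1 was lowest and replicate 3 highest for Myh2 and for Ldhb alike. The 7 slow-fibre markers summed to 54.2 to 80.1 CPM in Tg trained, 51.4 to 172 in Tg untrained, 44.7 to 99.7 in WT trained and 44.1 to 64.7 in WT untrained libraries. All 7 were above 0 in every library. The summed slow-fibre and fast-fibre lists both overlapped between genotypes. Medians of the fast-fibre sum, which includes Myh2, were lower in Tg muscle. They were 82637 CPM in Tg trained against 90230 CPM in WT trained libraries. Without training they were 79134 CPM in Tg against 85429 CPM in WT libraries. The part of fibre type in the Ldhb values was not tested.

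**Figure D5:**
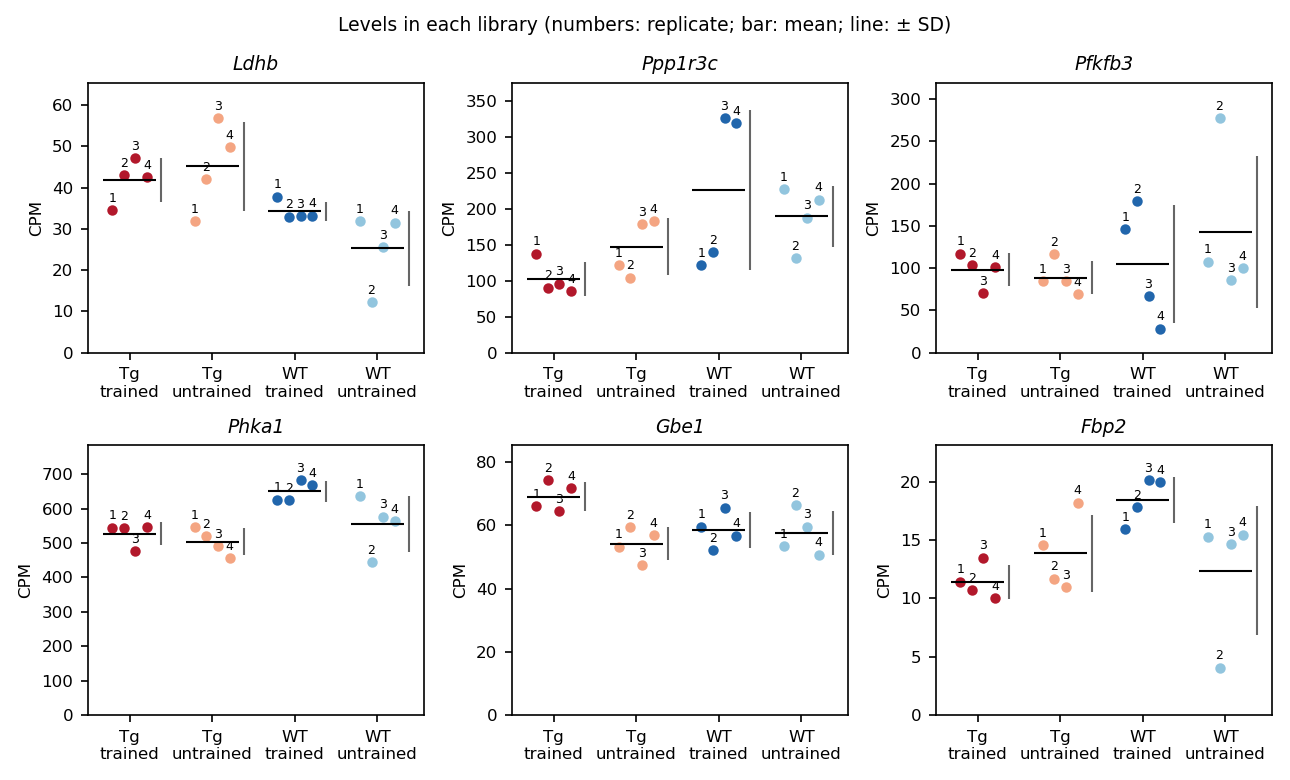
Level in CPM of 6 members in each library by group, with replicate numbers beside the points, a bar at the group mean and a line for ± SD (n = 4). Ldhb points are highest in the Tg groups apart from replicate 1 of each, and Ppp1r3c and Pfkfb3 split within the WT trained group. The Phka1 points of WT trained libraries (624 to 682 CPM) lie above all Tg points, a split not counted over all genes.

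A further 34 genes of the same pathways, transporters, other isoforms and regulators that are no members, gave 30 tested entries. None was called in edgeR in any of the 7 comparisons, with 4, 2, 8 and 2 of 30 at an unadjusted p under 0.05 for training in Tg, training in WT, Tg untrained and Tg trained against WT, where the shares of all genes were 11.1%, 9.55%, 16.2% and 7.98%. The smallest adjusted p among them was that of Stbd1, which anchors glycogen to membranes, in untrained Tg against WT muscle. Stbd1 measured 16.5, 15.03, 10.2 and 13.5 CPM in Tg untrained and 20.3, 40.6, 18.7 and 18.4 CPM in WT untrained libraries, where replicate 2 was the highest. Its log2FC was -0.83 (SE 0.219, adjusted p = 0.0867) in edgeR, and without that library -0.47 (adjusted p = 0.107). Ppp1r3d, another phosphatase-targeting subunit, followed at 0.81 (SE 0.217, adjusted p = 0.0941) in edgeR. With training in Tg, these were at 0.64 (SE 0.219, adjusted p = 0.299) and -0.61 (SE 0.213, adjusted p = 0.305) in edgeR. Without WT untrained replicate 2, Stbd1 was called in edgeR for training in Tg (log2FC 0.64, adjusted p = 0.0435). That library enters this comparison only through the shared estimate of spread and the scaling. The fit without it called 93 of 17490 genes, against 0 with all libraries. Stbd1 was also called there for training averaged over genotypes (0.42, adjusted p = 0.0406, edgeR). For that comparison, fits without 1 library called 15 to 389 genes. The 2 smallest p in trained Tg against WT muscle were those of Hk3 at -1.75 (SE 0.437, adjusted p = 0.321) and Eno2 at 0.46 (SE 0.193, adjusted p = 0.574), and with training in WT those of Pgp at 0.32 (SE 0.132, adjusted p = 0.466) and Pgm3 at -0.24 (SE 0.108, adjusted p = 0.513), all in edgeR. Pgp was at 0.16 (adjusted p = 0.559, edgeR) without WT untrained replicate 2. Hk3 was near the floor, at 0.070 to 0.157 CPM in Tg trained and 0.116 to 0.708 CPM in WT trained libraries, and these overlapped.

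The median coefficient of variation of the tested members was 6.03% in Tg trained, 9.28% in Tg untrained, 6.89% in WT trained and 21.2% in WT untrained libraries, or 3.85% in the 3 WT untrained libraries other than replicate 2.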

How the data were processed

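Per the labels' protocols, column-purified RNA went into a SMARTer mRNA-seq kit. The deposited table holds the authors' RSEM expected counts per gene, not normalized, of which 12.5% are not whole. STAR 2.7.8a, RSEM 1.3.2 and mm10 are named in the submitters' processing notes, with the gene annotation used not given in the sources used here. Reads shared by similar genes are apportioned by RSEM, which leaves close paralogs uncertain, and the use of strand is not stated. Expected counts were rounded, filtered by group with filterByExpr, scaled by TMM and fitted in edgeR 4.0.16 (R 4.3.3; limma 3.58.1, DESeq2 1.42.0 for alternatives) with quasi-likelihood, 1 mean per group over all 16 libraries, and 7 comparisons with Benjamini-Hochberg adjustment over all genes tested. At least 99.928% of each library fell in tested genes, and the biological coefficient of variation was 14.1%. All pairs of replicates differed by more than sampling noise (chi-square per degree of freedom of at least 7.31). Positions and exon lengths came from the GENCODE annotation of GRCm38, matched by identifier for 17469 of 17490 tested entries. The test procedure was tested on simulated data. Members and lists were chosen with earlier results of these data known. Values in every library are given for members called in any comparison, the 3 with the smallest p in each pairwise comparison, and the highest per length in each role. Of the further pathway genes, the 2 with the smallest p per pairwise comparison are named. Pfkfb3 and Myh2, given in every library, and Myh1, Slc16a3, Gpd1 and Gaa, given in WT untrained libraries, were chosen after their values were seen, as were the libraries and the promoters singled out. Alternatives were scaling by totals, RLE or upper-quartile factors, robust dispersion, no filter, CPM of at least 1 in 4 libraries, DESeq2, limma-voom, a replicate block, leaving out each library, leaving out libraries above 10 CPM of Myh7 or Alb, and fitting 8 libraries alone.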

Additional observations from a re-analysis of the deposited data

Results flagged for a closer look

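Each member was checked for a library far from the other 3 of its group, by Dixon's criterion on the gap to the nearest library over the whole range. Of 140 groups of 4 (35 entries in 4 groups), 20 passed the 95% limit for 4 values, and chance passes about 1 in 20 groups. WT untrained replicate 2 accounted for 17 of the 20. It was the low library for 14 members, at 205 CPM for Gpi1, 688 CPM for Pfkm, 7.93 CPM for Pfkfb1, 4.07 CPM for Fbp2, 4897 CPM for Aldoa, 210.0 CPM for Tpi1, 651 CPM for Gapdh, 213 CPM for Pgam2, 13.1 CPM for Eno1, 357 CPM for Eno3, 784 CPM for Pkm, 249 CPM for Ldha, 96.7 CPM for Gys1 and 1764 CPM for Pygm. It was the high library for 3 members, at 376 CPM for Hk2, 277 CPM for Pfkfb3 and 45.7 CPM for Pfkfb4. The other 3 were Phka1 and Phkg1, low in Tg trained replicate 3 at 477 and 208 CPM, and Ldhb, high in WT trained replicate 1 at 37.8 CPM. The member values of WT untrained replicate 2 are set beside the other libraries in the heatmap of levels, and what set that library apart was not tested.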

How the results depend on the processing

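Genes called over the whole table numbered 0 for training in Tg, 25 for training in WT, 130 for Tg without training, 2 for Tg with training, 9 for the difference of responses, 80 for training averaged over genotypes and 196 for Tg averaged over training states in edgeR. They numbered 126 for training in Tg, 68 for training in WT, 442 for Tg without training, 54 for Tg with training, 35 for the difference of responses, 367 for training averaged over genotypes and 639 for Tg averaged over training states with DESeq2. Counts that moved by over 1.5 times with scaling by totals were 1 for training in Tg, 66 for Tg without training, 1 for Tg with training and 85 for Tg averaged over training states, without a filter 5 for training in Tg, 1 for Tg with training and 15 for the difference of responses, and with the CPM filter 1 for Tg with training. Without the Myh7 libraries they were 9 for training in Tg, 32 for Tg without training, 4 for the difference of responses and 41 for training averaged over genotypes, without the Alb libraries 104 for training in Tg, 42 for training in WT and 584 for training averaged over genotypes, and in fits of 8 libraries 146 for training in Tg, 10 for training in WT, 44 for Tg without training and 5 for Tg with training. Leaving out each library in turn gave 0 to 93 for training in Tg, 16 to 30 for training in WT, 43 to 138 for Tg without training, 1 to 16 for Tg with training, 6 to 12 for the difference of responses, 15 to 389 for training averaged over genotypes and 29 to 374 for Tg averaged over training states. The most calls were made without WT untrained replicate 2 (training in Tg), WT trained replicate 4 (training averaged) or WT trained replicate 2 (Tg with training and Tg averaged), and the fewest without Tg trained replicate 4 (Tg averaged), Tg untrained replicate 2 (training averaged) or replicate 3 (Tg without training). The cause was not tested. Members called stayed at 0 except with DESeq2 (1, Ldhb, for Tg without training; 3 for Tg averaged), without the Alb libraries (3 for training averaged, Pfkp, Gbe1 and Pygb, where 3.34% of genes were called; 2 for Tg averaged, Pgm1 and Phka1, where 1.23% were), and with 1 library left out (0 to 1 for training averaged, 0 to 4 for Tg averaged, 0 to 0 for the other 5). The library whose omission called a member was WT trained replicate 4 for training averaged (Pygb) and WT untrained replicate 2 (4 members) or WT trained replicates 1 or 2 (Ppp1r3c) for Tg averaged. Member medians with 1 library left out ranged over 0.037 to 0.090 for training in Tg, 0.041 to 0.225 for training in WT, -0.126 to 0.098 for Tg without training, -0.065 to -0.031 for Tg with training, -0.194 to 0.017 for the difference of responses, 0.053 to 0.159 for training averaged over genotypes and -0.075 to 0.021 for Tg averaged over training states. With the replicate number as a block, the counts were 66 for Tg without training, 1 for Tg with training and 16 for training averaged, with no member called. The labels do not say whether the numbers pair the libraries. Deviations of same-numbered libraries correlated at -0.153 to 0.176, those of others at -0.199 to 0.161. Between Tg trained and Tg untrained, the same-numbered values were 0.058, 0.095, 0.117 and 0.176, and the others -0.118 to 0.086. In each other pair of groups the same-numbered values had both signs. These ranges cannot exclude a shared litter, batch or day. Aldoc, at 2 to 18 counts, was below the depth at which differences could be tested.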

Other observations

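In WT trained libraries, replicates 1 and 2 were higher in Pfkfb3 and lower in Ppp1r3c than replicates 3 and 4. There Pfkfb3 was at 146, 179, 66.8 and 28.4 CPM and Ppp1r3c at 122, 139.8, 326 and 319.7 CPM. In WT untrained libraries Pfkfb3 was at 108, 277, 85.9 and 100.1 CPM and Ppp1r3c at 228, 131, 188 and 213 CPM, with replicate 2 the highest in Pfkfb3 and the lowest in Ppp1r3c. In Tg trained libraries, replicate 1 was highest for both genes. No test was made, since the pair was chosen after the values were seen. Further pathway genes showed the split of WT untrained replicate 2 seen among the members. Slc16a3, the lactate exporter of glycolytic fibres, measured 167, 38.7, 174 and 177 CPM in WT untrained replicates 1 to 4, and Gpd1, which turns a triose phosphate into glycerol phosphate, 287, 108, 277 and 295 CPM. Stbd1 measured 20.3, 40.6, 18.7 and 18.4 CPM and Gaa, the lysosomal glucosidase that degrades glycogen, 113, 193, 115 and 119 CPM, with replicate 2 the highest for both. These 4 genes were chosen after their values were seen.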
